A study of Mus musculus with 7 samples.

Results

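The miR-130 and miR-301 family was examined in kidney RNA of mice, as the 4 mouse miRNAs mmu-miR-130a, mmu-miR-130b, mmu-miR-301a and mmu-miR-301b. They were chosen by name among the 696 mouse miRNAs on the arrays. The rule used no measured value, but the choice was made with earlier results of these data known. Male C57BL/6 mice aged 9 to 12 weeks had the left ureter tied (unilateral ureteral obstruction, UUO, which leads to kidney fibrosis) or a sham operation without the tie, and kidneys were taken after 28 days. Total RNA of the kidney was prepared with the RecoverAll kit by the labels, whereas the paper names the miRNeasy kit for tissue and RecoverAll for human fixed tissue. The RNA was labelled with Cy3 and measured on 7 1-colour Agilent arrays, all on 1 slide and scanned on 1 day. Of the arrays, 4 are labelled non-treated and 3 are labelled treated. The labels do not say which of them is the obstructed kidney. All groups were of the same strain and sex, and the kidney was measured as a whole, so that fewer cells of a type and less of a miRNA per cell cannot be told apart.

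Arrays are called treated and non-treated by their deposited label, and all differences are given as treated minus non-treated. By these labels, all 50 of the miRNAs whose direction is tabulated for UUO against sham had the opposite sign here, so the direction below is opposite to that of the paper and which label stands for obstruction is not settled. For example, mmu-miR-21, a miRNA well known in fibrosis, was 4.54-fold lower on the treated arrays (log2 difference -2.18, SE 0.13, limma adjusted p = 7.232e-06), with all 3 arrays below all 4 others.

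MicroRNAs guide silencing complexes to messenger RNAs that pair with the bases near their 5′ end, the seed. The miR-130 and miR-301 family is defined by a common seed, so that its members are predicted to share many targets, among them the nuclear receptor PPAR gamma. The family has been studied in the growth of vessel wall cells, in pulmonary hypertension and in fibrosis of several organs.

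The mature sequences are shown because they explain why the members form a family and where they differ. They are given 5′ to 3′ from RefSeq (GRCm38.p6) with bases 2 to 8, the seed, in capitals. A mature sequence was matched for 3 of the 4 members. The arrays name the members without an arm, which in this family stands for the 3p strand.
mmu-miR-130a: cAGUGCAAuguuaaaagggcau
mmu-miR-130b: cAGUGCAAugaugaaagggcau
mmu-miR-301a: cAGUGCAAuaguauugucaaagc
mmu-miR-721: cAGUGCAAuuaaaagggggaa
mmu-miR-148a: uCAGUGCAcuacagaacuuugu

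The first 3 lines are members. mmu-miR-130a (chr2:84741116-84741137, minus strand, in no other listed gene) and mmu-miR-130b (chr16:17124071-17124092, minus strand, within the span of 2610318N02Rik) carry the same base at 20 of 22 positions. Counted from the 5′ end, they differ by U11A and A13G (base of mmu-miR-130a, position, base of mmu-miR-130b), both outside the seed. mmu-miR-301a (chr11:87113054-87113076, plus strand, within the span of Ska2, a gene for a mitotic spindle protein) has 23 bases and shares the first 9 with mmu-miR-130a before the sequences part. The other lines show relatives that are not among the 4 members. mmu-miR-721 has the same seed, AGUGCAA, which is held by 7 of the 1679 mature sequences in the table used. mmu-miR-148a carries the same run moved by 1 base, its bases 2 to 8 being equal to bases 1 to 7 of the members.

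Signals are intensities after background subtraction, averaged over the spots of each probe, with the probes of a miRNA added up. mmu-miR-130a and mmu-miR-301a were detected by Agilent's software on 7 of 7 arrays. mmu-miR-130b was detected on 4 of 4 non-treated arrays and on 0 of 3 treated ones. mmu-miR-301b was detected on 0 of 7. The arrays differed as a whole, which touches each of these values. Over the 186 miRNAs that every array detected, the mean log2 signal was 7.24 ± 0.40 (SD, n = 4) on non-treated arrays and 6.09 ± 0.32 (SD, n = 3) on the treated ones, a difference of -1.16, while 4 spike-in controls differed by -0.20. Between 193 and 214 miRNAs were detected per treated array and between 232 and 282 per non-treated array. Non-treated replicate 3 stood apart in its group, with a mean of 6.65 against 7.40 to 7.52 for the others.

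Before any scaling, mmu-miR-130a gave signals of 1464, 1467, 982 and 1531 on the 4 non-treated arrays and of 549, 703 and 433 on the 3 treated ones. The means were 1361 ± 255 (SD, n = 4) and 562 ± 136 (SD, n = 3). mmu-miR-301a, from another chromosome, had signals of 143, 171, 130 and 175 on the former and 49.4, 67.8 and 37.7 on the latter. For both miRNAs every treated array lay below every non-treated array. Without scaling, the 236 miRNAs tested as described below had a median log2 difference of -1.20. Of these, 162 were lower and 7 higher at a limma adjusted p below 0.01, so the separation is no result about the members. Within the groups, the lowest signals came from non-treated replicate 3 and treated replicate 4. These 2 arrays also had the lowest mean log2 signal of their group over the 186 miRNAs found everywhere.

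mmu-miR-130b gave signals of 25.2, 27.5, 13.8 and 25.7 on the non-treated arrays, against 3.71, 3.62 and 1.77 on the treated ones, where it was not detected. The group means were 23.0 ± 6.2 (SD, n = 4) and 3.04 ± 1.10 (SD, n = 3). mmu-miR-301b, the member named next to it, lay between -2.05 and 3.12 on all 7 arrays. It was above 0 on all 4 non-treated arrays and on both sides of 0 on the treated ones, never above background, and no difference could be measured for it.

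**Figure D1:**
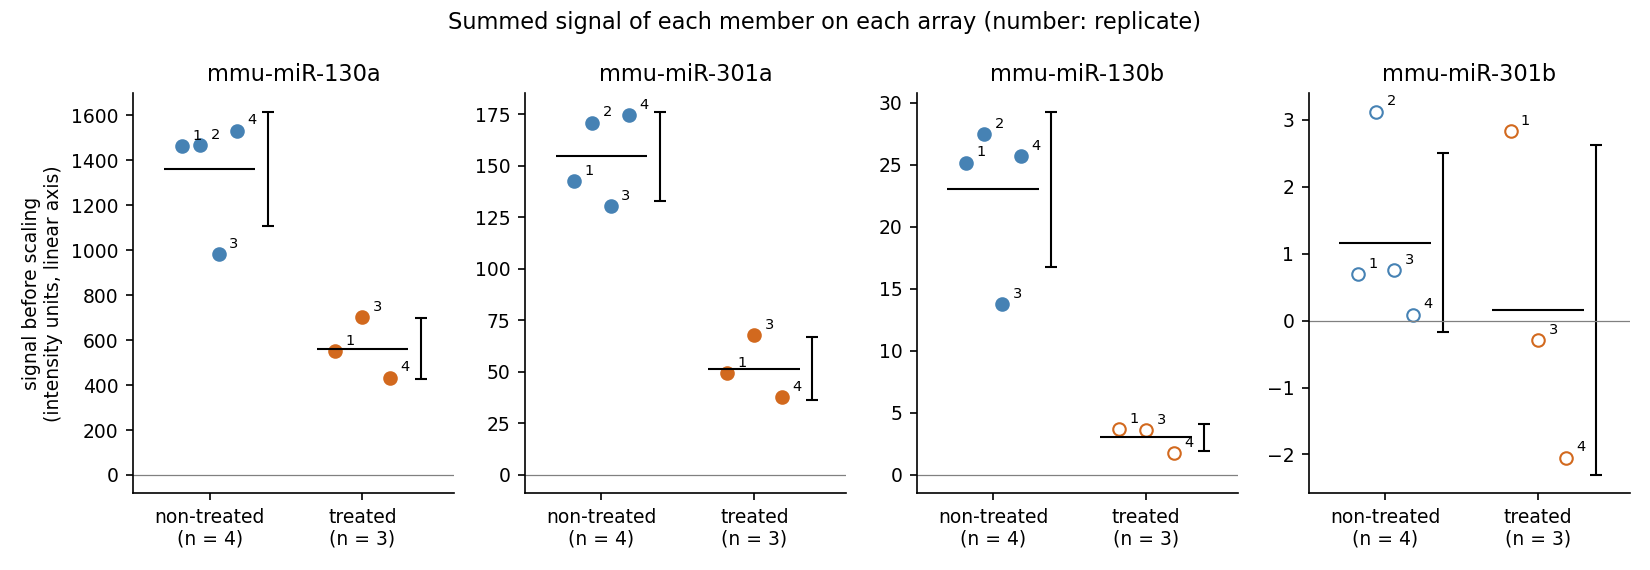
Signal before scaling (intensity units, linear axes that differ between panels) of each member on each of the 7 arrays, by label. Points are arrays numbered by replicate, filled where the miRNA was detected and open where it was not, lines are group means and bars are SD. The treated arrays lie below the others for mmu-miR-130a, mmu-miR-301a and mmu-miR-130b, and mmu-miR-301b is open on all arrays.

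To compare the labels apart from the overall signal, each array was centred on its mean log2 signal over the 186 miRNAs found everywhere, and scaled signals below 5.85 (2.55 on the log2 scale) were raised to that floor. The test took in the 236 miRNAs seen on all arrays of 1 label or both, with limma's moderated test and a Benjamini-Hochberg adjusted p below 0.01. Of these, 130 (55.1%) passed, of which 55 had more signal on treated arrays and 75 (31.8%) were lower there, and the median difference of all 236 was -0.08. Of the 3 members that could be tested, 1 passed, mmu-miR-130b, and it was lower. A count of 1 among 3 beside these shares is no result about the family, and mmu-miR-130b could be tested only through the label under which it was detected.

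After scaling, mmu-miR-130a stood at log2 9.87, 9.75, 10.03 and 9.92 on the non-treated arrays and at 9.80, 9.78 and 9.71 on the treated ones. The groups overlapped, since non-treated replicate 2 lay below 2 of the 3 treated arrays. The difference was -0.13 (SE 0.07, 95% interval -0.31 to 0.05, limma adjusted p = 0.175), and the exact 2-sided permutation test over arrays gave p = 0.171. A 1.09-fold lower level of mmu-miR-130a was thus within the spread between arrays. The scaling decides its size and call: the difference was -1.28 without scaling (adjusted p = 0.000157), -1.08 when arrays were set by the spike-in controls (adjusted p = 1.533e-05) and 0.12 when they were set by the 75th percentile of all miRNAs (adjusted p = 0.332).

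mmu-miR-301a had scaled log2 signals of 6.51, 6.65, 7.12 and 6.79 on the non-treated arrays, and of 6.33, 6.41 and 6.19 on the treated ones. All 3 treated arrays lay below all 4 others, by a margin smaller than the spread within either label. The difference was -0.46 (SE 0.15, 95% interval -0.81 to -0.10), a 1.37-fold lower level, and its limma adjusted p of 0.0298 did not pass the threshold of 0.01. The exact 2-sided permutation test gave p = 0.0571, the smallest that 3 arrays against 4 allow, so that this test cannot go below 0.05. Non-treated replicate 3 held the highest value, and without that array the difference was -0.34 (limma adjusted p = 0.0206). The sign of mmu-miR-301a was the same under every scaling tried, from -1.61 without scaling to -0.21 with the 75th percentile of all miRNAs.

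mmu-miR-130b lay at scaled log2 4.00, 4.01, 3.88 and 4.03 on the non-treated arrays. On the treated arrays it lay at 2.59, 2.55 and 2.55, at or just above the floor. Its level on the latter is therefore only a bound, and mmu-miR-130b was at least 2.67-fold higher on the non-treated arrays, the dimmer arrays being taken at the floor or their own signal, whichever was higher (log2 difference -1.42, SE 0.05, limma adjusted p = 1.523e-06). The SE and p rest on treated values at or just above the floor, so they do not measure the spread between treated arrays. mmu-miR-130b was one of 26 miRNAs detected on all non-treated arrays and on no treated array, of which 11 passed as lower. The call was lost with normexp background correction on median signals and with the deposited table, where every array of mmu-miR-130b lay at the floor and the difference was 0 (adjusted p = 1.0 in each). In that table the column of treated replicate 4 is an error estimate and not a signal, and without this array the table gave -2.45 (adjusted p = 0.000293).

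**Figure D2:**
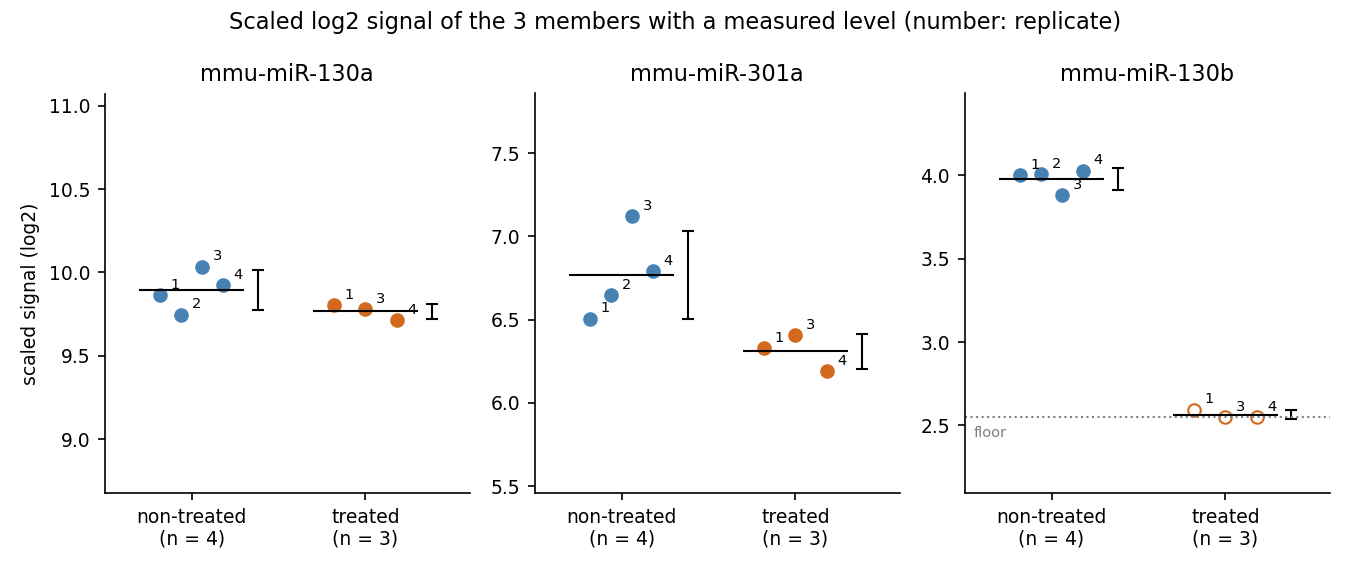
Scaled log2 signal of mmu-miR-130a, mmu-miR-301a and mmu-miR-130b on each array, by label, on axes of equal span. Points are arrays numbered by replicate (open: not detected), lines are means, bars are SD and the dotted line is the floor at 2.55. The labels overlap for mmu-miR-130a, lie apart by a small gap for mmu-miR-301a, and lie apart for mmu-miR-130b with the treated arrays at the floor.

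**Figure D3:**
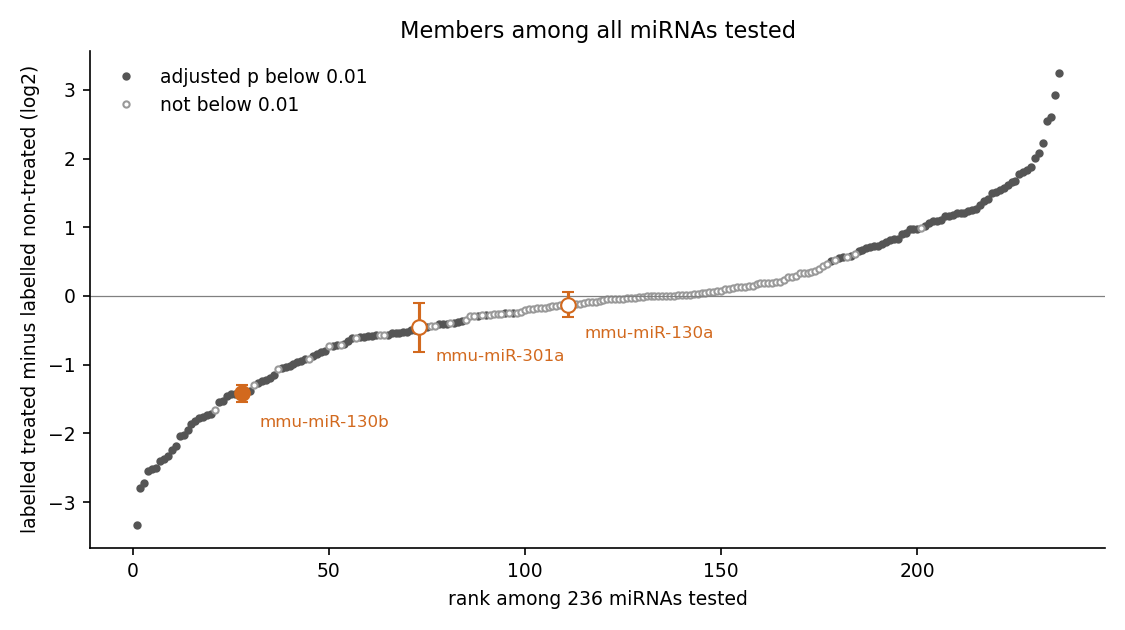
Log2 difference (treated minus non-treated) of the 236 miRNAs tested, sorted, with filled points for an adjusted p below 0.01. The members are drawn in colour with 95% intervals, at rank 28 for mmu-miR-130b, 74 for mmu-miR-301a and 111 for mmu-miR-130a from the most lowered. mmu-miR-130b is a bound, and its interval rests on treated values at or just above the floor.

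Among the 236 differences sorted from the most lowered, mmu-miR-130b, a bound, ranked 28, mmu-miR-301a 74 and mmu-miR-130a 111. The members thus spread from the lowered end to the middle of the range. Whether they differed from one another was asked within arrays, where the scaling of an array cancels. The only pair with both miRNAs detected on every array was mmu-miR-301a with mmu-miR-130a. The log2 signal of mmu-miR-301a minus that of mmu-miR-130a, which compares the labels and not the levels of the 2 probe sets, was -3.36, -3.10, -2.91 and -3.13 on non-treated arrays and -3.47, -3.38 and -3.52 on the treated ones. The groups did not overlap, though non-treated replicate 1 and treated replicate 3 lay close together. The mean changed by -0.33 (SE 0.11), with an exact 2-sided permutation p of 0.0571 for the 1 pair tested, again the smallest possible with 35 splits. With normexp on median signals the same quantity was 0.41 and the groups overlapped (exact permutation p = 0.114), where both the background correction and the signal taken per spot were changed. For the pairs with mmu-miR-130b, which is at the floor under 1 label, the values are a description. mmu-miR-130b minus mmu-miR-130a lay between -6.15 and -5.74 on non-treated arrays and between -7.23 and -7.17 on the others.

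**Figure D4:**
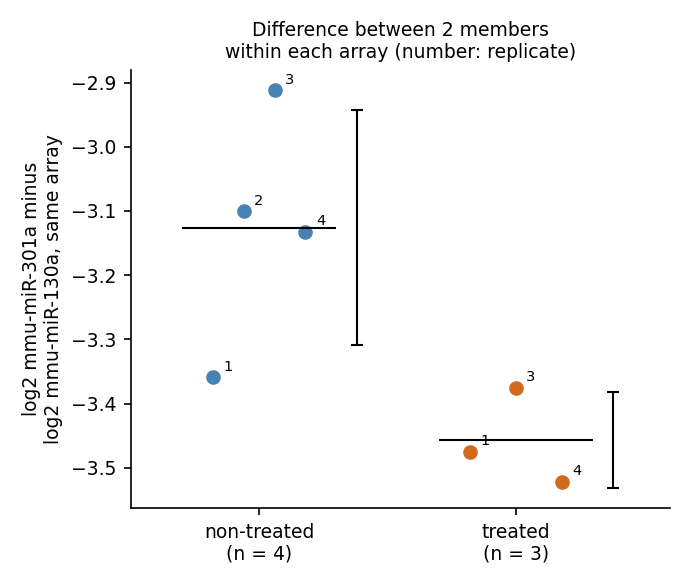
Log2 signal of mmu-miR-301a minus log2 signal of mmu-miR-130a within each array, by label. Points are arrays numbered by replicate, lines are means (-3.13 and -3.46) and bars are SD. The 3 treated arrays lie at or below -3.38, just under the lowest non-treated array at -3.36.

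Each of the 3 measured members is read by 2 probes, with 9 or 10 usable spots per array. For mmu-miR-130a the probes did not move alike. The probe A_54_P1044 was lower on the treated arrays by a log2 difference of -0.23 (SE 0.05, limma adjusted p = 0.007095), a 1.18-fold change that passed the threshold, whereas A_54_P1045 gave -0.07 (SE 0.09, adjusted p = 0.603). Over all 370 probes tested, 25.9% passed as lower. The signal of A_54_P1044 divided by that of A_54_P1045 was 0.580 to 0.673 on non-treated arrays and 0.502 to 0.578 on the others, and these ranges lay apart by a narrow margin. The spots of these probes varied with a median coefficient of variation of 14.4% and 15.3%.

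The probes of mmu-miR-301a moved alike, with log2 differences of -0.45 (SE 0.16, limma adjusted p = 0.0568) for A_54_P2440 and -0.48 (SE 0.13, adjusted p = 0.0206) for A_54_P2441. Neither passed. Their ratio was 0.222 to 0.258 on non-treated arrays and 0.220 to 0.254 on the others, and these ranges overlapped. For mmu-miR-130b, A_54_P1266 was well above background on 4 of 4 non-treated arrays, with signals of 10.2 to 20.1, and on 0 of 3 treated ones, with signals of 1.23 to 2.68. The second probe, A_54_P1265, gave 3.63 to 7.32 and 0.545 to 1.13, and was not tested because it was well above background on only 3 of the 4 non-treated arrays. Both probes of mmu-miR-130b were thus dimmer on every treated array. The signal of A_54_P1265 divided by that of A_54_P1266 was 0.29 to 0.36 on non-treated arrays and 0.39 to 0.45 on the others. Neither probe was well above background on a treated array, so this ratio is only a description. The 4 probes of mmu-miR-301b were well above background on 0 arrays.

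Of the relatives by sequence, the star strand mmu-miR-130b*, the partner strand of the same hairpin, was detected on 0 of 7 arrays, with signals of -1.48 to 0.96. mmu-miR-721, with the seed of the family, was detected on 1 array, non-treated replicate 4, and was not tested. Its signals were 8.59, 11.2, 7.36 and 12.4 on the non-treated arrays and 4.14, 4.78 and 2.49 on the treated ones. The groups did not overlap before scaling but overlapped after it.

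The miRNAs with the shifted seed, miR-148a, miR-148b and miR-152, of which miR-148a and miR-152 are known to act on the DNA methyltransferase DNMT1, gave 2 of 3 lower and 0 higher, beside 31.8% lower among all miRNAs tested, with a median of -0.50. mmu-miR-148a was 3.63-fold lower on the treated arrays (log2 difference -1.86, SE 0.25, limma adjusted p = 0.0004448) and mmu-miR-152 1.41-fold lower (-0.50, SE 0.09, adjusted p = 0.002461). mmu-miR-148b had a difference of 0.33 (adjusted p = 0.0116) and did not pass, and its sign turned without scaling (-0.82), with the mean of all miRNAs (-0.17) and with the spike-in controls (-0.62).

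miRNAs that have been described downstream of this family and PPAR gamma are miR-204, miR-322 and miR-503. All 3 passed as lower on the treated arrays, beside 31.8% of all miRNAs tested, with a median of -0.54. The differences were -0.56 (SE 0.08, limma adjusted p = 0.0005869) for miR-204, an epithelial miRNA, -0.40 (SE 0.07, adjusted p = 0.002139) for miR-322 and -0.54 (SE 0.12, adjusted p = 0.005985) for miR-503, the latter both from 1 cluster and acting on the cell cycle. None of the 3 turned its sign under 6 other scalings, counting no scaling as 1. miR-503 was detected on only 2 of 3 treated arrays, with a mean scaled log2 signal of 2.71 there, near the floor of 2.55. A link of these 3 miRNAs to the members or to PPAR gamma was not tested, and their count is no result about it.

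The 8 vascular miRNAs gave 1 higher, 2 lower and 5 not passed, with a median of -0.02, beside 55.1% passed in either direction and 31.8% lower among all miRNAs tested. miR-143 (-1.05, SE 0.09, limma adjusted p = 6.361e-05) and miR-145 (-0.82, SE 0.07, adjusted p = 5.183e-05), both of smooth muscle, were lower. miR-221, which acts on growth of vessel wall cells, was higher by 0.81 (SE 0.06, adjusted p = 3.485e-05), but was -0.35 without scaling and -0.15 with the spike-in controls. The endothelial miR-126-3p had a difference of 0.00 (adjusted p = 0.990). The 8 fibrosis miRNAs gave 2 higher, 5 lower and 1 not passed, with a median of -2.28, to be read beside the same shares. Higher were miR-29b (1.18, SE 0.12, adjusted p = 0.0001129) and miR-29c (1.49, SE 0.06, adjusted p = 2.652e-06), which act on collagen messages. Their size depended on the scaling. miR-29b was 0.02 without scaling and 0.22 with the spike-in controls, and miR-29c was 0.34 and 0.53. The lower ones were miR-21, miR-199a-3p, miR-199a-5p, miR-214 and miR-132, with differences between -2.55 and -2.18. Of these 5, miR-132 was detected on only 2 of 3 treated arrays, with a mean scaled log2 signal of 2.79 there, near the floor. The differences of mmu-miR-130a and mmu-miR-301a were closer to 0 than any of these 5, and that of mmu-miR-130b is a bound.

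Markers of several cell types moved with the labels in the same comparison. Their counts are to be read beside all 236 miRNAs tested, of which 55 passed as higher and 75 (31.8%) as lower. Of the tubule markers miR-192, miR-194, miR-30a, miR-204 and miR-215, 3 of the 4 tested were higher and 1 (miR-204) lower. miR-215 was detected on no array. The summed scaled signal of the tubule markers was 1619 to 1963 on non-treated arrays and 5510 to 5633 on the treated ones. The difference of miR-30a was 1.16, but 0.003 without scaling and 0.20 with the spike-in controls. Without scaling miR-192 was still higher by 2.08 and miR-194 by 1.76. The fibroblast markers miR-199a-3p, miR-199a-5p and miR-214 were lower in 3 of 3, with sums of 2120 to 2515 against 395 to 410. The white blood cell markers miR-142-3p, miR-142-5p, miR-150 and miR-223 were lower in 4 of 4, with sums of 1066 to 1394 against 264 to 287. Of the red blood cell markers, miR-486 was not matched by name and miR-144 and miR-451 were both higher, with sums of 1079 to 2329 against 4615 to 5118. The difference of miR-451 was 1.65, but 0.50 without scaling and 0.69 with the spike-in controls, and that of miR-144 was 2.61, 1.45 and 1.65. The endothelial pair miR-126-3p and miR-126-5p did not pass in either direction. The smooth muscle markers are the pair miR-143 and miR-145 above, with sums of 335 to 410 against 163 to 195. The neuronal miR-124 and the liver miR-122 were detected on no array. Neuronal miR-9 was detected on at least 1 array, but not on all arrays of either label, and so was not tested. The part of these shifts in cell markers in the differences of mmu-miR-130b and mmu-miR-301a was not tested.

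The miRNAs whose scaled log2 signal followed each member most closely over the 7 arrays were named from 185 candidates detected everywhere, as a description only, since the arrays fall under 2 labels and share their scaling. For mmu-miR-130a they were mmu-miR-301a (Pearson's r = 0.871), mmu-miR-125a-5p (r = 0.856) and mmu-miR-18a (r = 0.817). For mmu-miR-301a they were mmu-miR-23b (r = 0.933), mmu-miR-340-3p (r = 0.930) and mmu-miR-125a-5p (r = 0.928). mmu-miR-125a-5p appears in both, and mmu-miR-301a is the miRNA closest to mmu-miR-130a by this measure.

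**Figure D5:**
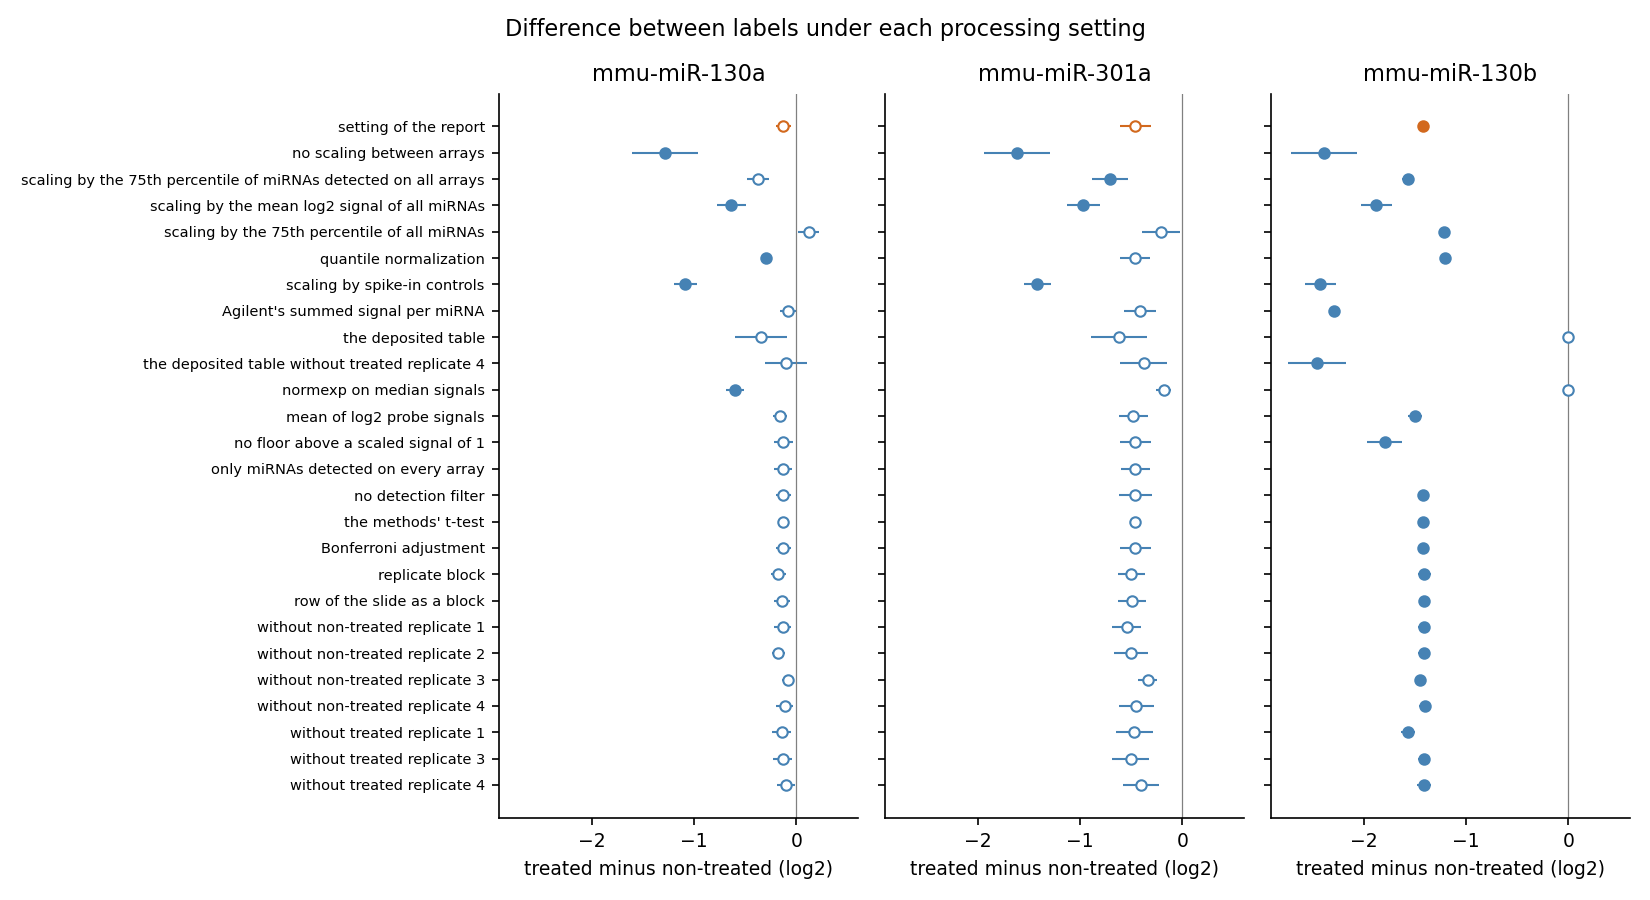
Log2 difference (treated minus non-treated) of mmu-miR-130a, mmu-miR-301a and mmu-miR-130b under the setting of the report (orange) and each alternative (blue). Bars are SE where the test gives 1, and filled points have an adjusted p below 0.01. mmu-miR-301a stays below 0 throughout, mmu-miR-130a crosses to 0.12 with the 75th percentile of all miRNAs, and mmu-miR-130b is at 0 with normexp and with the deposited table.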

How the data were processed

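The authors deposited Agilent Feature Extraction 10.7.3.1 output (version from the submitters' processing notes), with background-subtracted spot intensities on a linear scale, not normalized between arrays. Their methods take log2, normalize to the mean of each array and use a t-test. A table of processed intensities deposited by the authors held, within a relative tolerance of 1e-05, the first spot of each probe for 6 arrays and the error estimate for treated replicate 4; it served as an alternative.

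Here control spots and outlier spots were left out, and no spot was saturated. Arrays were fitted with limma 3.58.1 in R 4.3.3 as described above. The centring of arrays and the fit were run on simulated data with equal numbers of raised and lowered miRNAs. That run did not cover the averaging of spots, the adding up of probes, the detection filter or the floor. The paper gives 4 mice in each group, against 4 non-treated and 3 treated arrays analysed here, and the labels tie no array to an animal, so p-values measure the spread between these arrays, whose number limits the precision. Between arrays of a label, log2 signals differed with an SD at least 1.23 times the one expected from spots alone. Named were the members, strands and miRNAs sharing their seed, up to 4 per list, the 3 closest by correlation and miR-21. Members, lists and settings were chosen with earlier results of these data known. Human, PCR and serum measurements were not analysed here.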

Additional observations from a re-analysis of the deposited data

Results flagged for a closer look

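On the 4 arrays labelled non-treated, 8 sets of values were checked for an array far from the others. In 3 sets there was one, where chance gives about 1 in 20 for a single set. The sets were read on the same arrays and are not independent, so this count cannot be weighed against chance. In each of the 3 it was non-treated replicate 3. Over the miRNAs found everywhere its mean log2 signal was 6.65, and the others had 7.40 to 7.52. Its log2 signal before scaling was 9.94 for mmu-miR-130a, against 10.52 to 10.58, and 3.78 for mmu-miR-130b, against 4.65 to 4.78. The scaled values of the members were not flagged, but this array still held the extreme non-treated value of each measured member. It was the lowest for mmu-miR-130b (3.88 against 4.00 to 4.03). For mmu-miR-301a (7.12 against 6.51 to 6.79) and mmu-miR-130a (10.03 against 9.75 to 9.92) it was the highest.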

How the results depend on the processing

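Without scaling the log2 difference was -1.28 for mmu-miR-130a and -1.61 for mmu-miR-301a, with spike-in scaling -1.08 and -1.42, and with the mean of all miRNAs -0.64 and -0.97, and all 6 then passed the threshold. mmu-miR-130a also passed with quantile normalization (-0.30) and normexp (-0.60), and turned to 0.12 with the 75th percentile of all miRNAs. mmu-miR-301a also passed when the 75th percentile was taken over miRNAs found everywhere (-0.71). mmu-miR-130b was 0 with the deposited table and with normexp, kept its side in the other 22 alternatives, among them the deposited table without treated replicate 4 (-2.45), and has no value where only miRNAs detected on every array are used. mmu-miR-301b has no value in any. The within-array difference turned to 0.41 with normexp. In place of 130 miRNAs, 56 passed with the deposited table (94 without treated replicate 4, whose column holds error estimates), 59 with normexp and 72 with Bonferroni adjustment. The split of 55 higher and 75 lower became 7 and 162 without scaling, 18 and 170 with spike-in controls, 36 and 121 with the mean of all miRNAs, and 75 and 47 with the 75th percentile over all of them. For all tested miRNAs the median then lay at -1.20, -1.04, -0.56 and 0.11. Leaving out each array in turn gave -0.18 to -0.08 for mmu-miR-130a, -0.55 to -0.34 for mmu-miR-301a, -1.56 to -1.40 for mmu-miR-130b, -0.41 to -0.26 for the within-array difference and 116 to 140 miRNAs, with no member changing its call. The replicate numbers share no stated animal or batch, and the same-numbered pairs had correlations of deviations of -0.01, -0.02 and 0.19. With the replicate block the differences were -0.18, -0.50 and -1.41 for mmu-miR-130a, mmu-miR-301a and mmu-miR-130b, and 108 miRNAs passed. With a block for the slide's row they were -0.14, -0.49 and -1.41. Dim signals limit mmu-miR-130b and mmu-miR-301b.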
